A study of Mus musculus with 6 samples.

Results

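The histone genes named here are the mouse genes for the 4 core histones H2A, H2B, H3 and H4 and for the linker histone H1 that carry the older cluster names, most of which lie in the replication-dependent clusters. They were chosen by name alone, as all entries of the authors' deposited tables of m6A peaks whose gene name starts with Hist, a digit and the letter h. A gene could enter a table only with a called m6A peak, so the genes are those with a measured peak and not the whole family. The table that sets the ClpP knockout against WT held 29 such peaks on 26 genes, of 24127 peaks on 13334 genes. Its counterpart for the ClpX knockout held 42 peaks on 41 genes, of 23681 peaks on 13085 genes. Together they named 43 histone genes, 24 of them in both tables, 2 in the ClpP table alone and 17 in the ClpX table alone. RefSeq lists 70 mouse genes with a name or older name of this form, and each of the 43 matched 1 of them. The weakest histone peak calls were those of Hist3h2a in the ClpX table, with a log10 adjusted p of -2.25, and Hist2h3c2 in the ClpP table, with -2.56 (authors' deposited tables).

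m6A, N6-methyladenosine, is a base modification of messenger RNA, and m6A-seq pulls methylated RNA fragments down with an antibody (IP) and sequences them beside the unselected RNA (input). The samples were male germ cells from mice at postnatal day 35, labelled as spermatocytes, of 3 genotypes: WT controls, ClpP cKO and ClpX cKO. In the conditional knockouts (cKO) the gene was deleted in male germ cells by a Cre recombinase under the Stra8 promoter, which is active in germ cells that approach meiosis. ClpP is the protease and ClpX the unfoldase of a mitochondrial matrix protein-degrading machine. Each genotype gave 1 IP and 1 input library, 6 libraries in all, from 1.3 µg of total RNA each.

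Core histones form the nucleosome, and H1 binds the DNA between nucleosomes. Most messenger RNAs of the clustered genes have no introns and end in a conserved stem-loop in place of a poly(A) tail. They are made mainly in S phase with the DNA they package, although some cluster genes also give polyadenylated RNA in cells that have stopped dividing. In the testis, many somatic histones are exchanged for germ cell forms such as the linker histone H1t before protamines take their place.

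With 1 library per group no difference below has a replicate check, and a called difference compares libraries, not genotypes. Peaks with an adjusted p under 0.05 for the difference are described as called, higher or lower by the sign of their value. The value given is their log2 fold change, read as knockout over WT because each table names the knockout first. Both comparisons use the same WT libraries, so they are not independent. Values per library and read depth were not used here, and no source used here gives how the 2 libraries of a genotype and their depths enter the fold change. In bulk RNA, fewer cells of a type and less RNA or less methylation per cell cannot be told apart. Core histone genes of one family have near-identical coding sequences, and how reads that match several copies were assigned is also not given, so the assignment of a core histone peak to 1 gene is uncertain. It is less so for the H1 genes, whose sequences differ more.

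In the ClpX cKO, more peaks on histone genes were called higher than lower. Of 42 peaks, 24 (57.1%) were called higher and 3 (7.14%) lower, against 15.1% higher and 5.0% lower among all peaks of that table. Of the 24 higher calls 12 were on genes listed in that table alone, and on the genes in both tables the count was 12 of 25 (48.0%), against 14.8% of all peaks on genes in both. The median log2 fold change of the histone peaks was 0.76, with a range from -1.81 to 3.06, and that of all peaks was 0.24. Relative to that shift of all peaks, the histone median was 0.52 and 28 of 42 peaks were positive, in place of 33. Without that shift, 17 of the 25 peaks on genes in both tables were positive. Counted by size alone, 13 peaks (31.0%) had a log2 fold change of at least 1 and 3 (7.14%) of -1 or less, against 25.7% and 15.7% of all peaks. By that measure of size the share of higher histone peaks lay near the background.

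The ClpP cKO gave the opposite balance with smaller numbers. Of 29 histone peaks, 8 (27.6%) were called lower and 2 (6.9%) higher, against 12.8% lower and 6.74% higher among all peaks. The share called higher lay near the background. The median was -0.26, with a range from -2.88 to 1.12, beside -0.03 for all peaks. A log2 fold change of -1 or less was found for 7 peaks (24.1%, against 13.7% of all peaks), and 1 peak (3.45%, against 17.5%) had a value of at least 1.

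**Figure D1:**
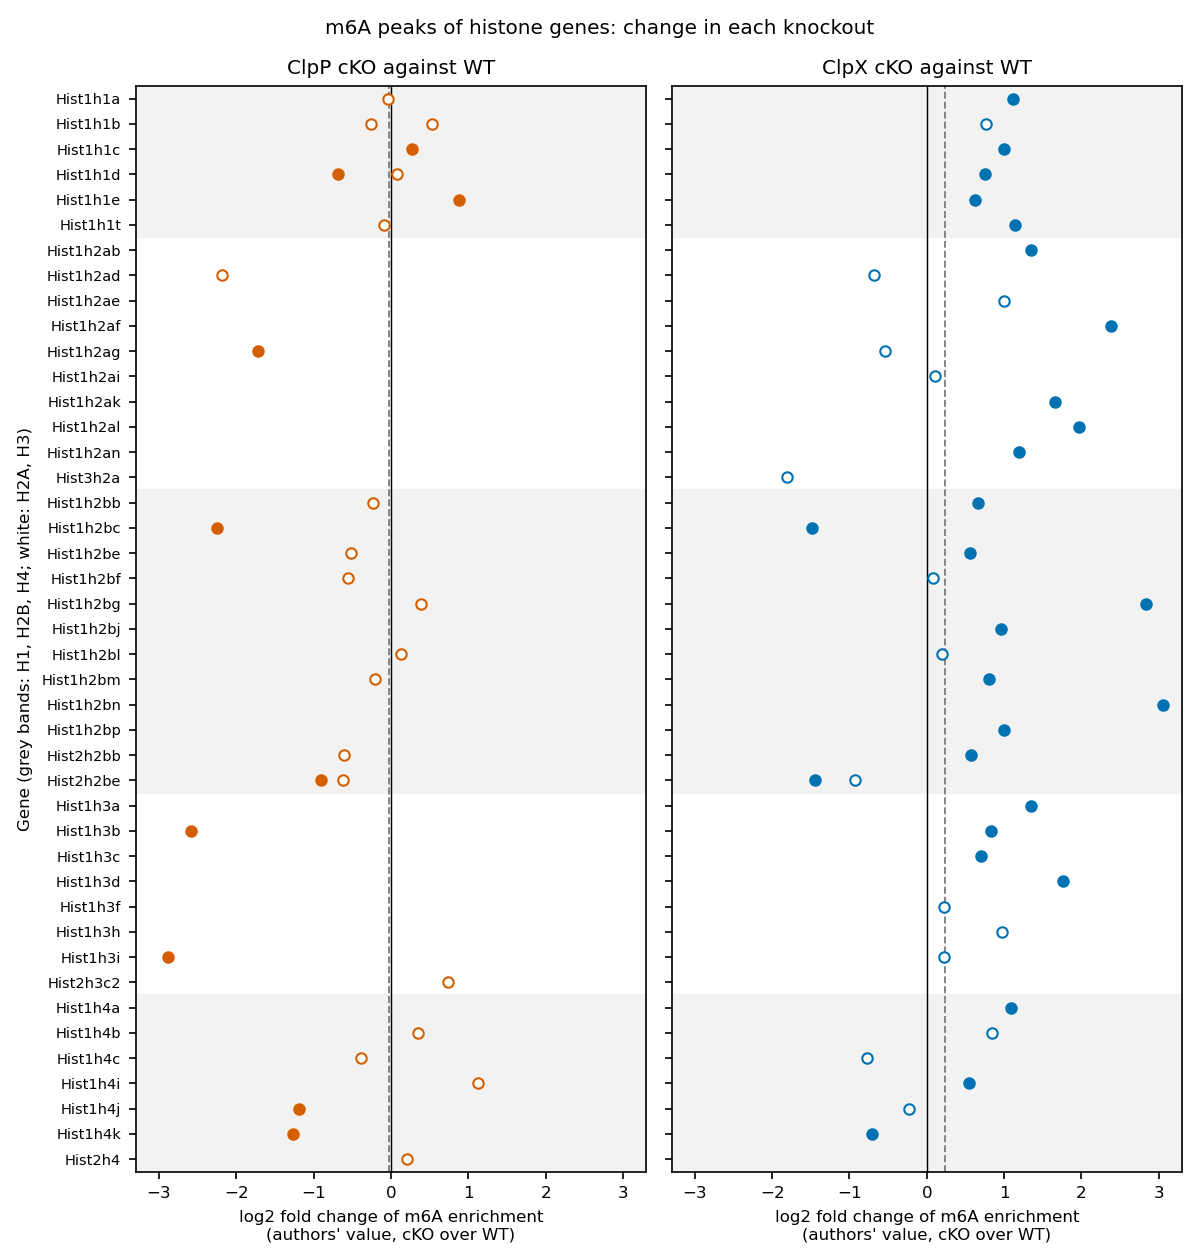
The log2 fold change of each m6A peak on a histone gene (x axis, cKO over WT, authors' values) is plotted by gene and family for the ClpP comparison (left) and the ClpX comparison (right). Filled points were called at an adjusted p under 0.05, open points were not, and the dashed line marks the median of all peaks of that table, -0.03 and 0.24. In the ClpX panel 33 of 42 points lie above 0 and 28 above the dashed line, and in the ClpP panel 19 of 29 lie below it. Of the 25 ClpX points on genes in both tables, 17 lie above 0.

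Linker histones were listed with 6 genes in each table: Hist1h1a to Hist1h1e, which encode the H1 forms of somatic and dividing cells, and Hist1h1t, the H1 of spermatocytes. All 6 had a positive value in the ClpX comparison, also relative to all peaks, from 0.63 to 1.14 with a median of 0.88, and 5 were called higher. In the ClpP comparison their 8 peaks had a median of 0.02, with 2 called higher and 1 lower. Among all peaks 15.1% were higher and 5.0% lower in the ClpX table, and 6.74% and 12.8% in the ClpP table. The family counts below stand beside these shares too. The ClpX peaks of Hist1h1a, Hist1h1b and Hist1h1t lay in the lowest quintile of fold enrichment (1.12 to 3.79). There 33.2% of all peaks were called higher, with a median of 0.81. The peaks of Hist1h1c, Hist1h1d and Hist1h1e lay above it.

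Hist1h1t was higher by 1.14 for ClpX cKO (authors' deposited table, adjusted p 1e-139). The overlapping peak in the authors' deposited table for ClpP cKO had a value of -0.09 and was not called. Its fold enrichment, read as IP over input, was low in both deposited tables, at 2.05 and 1.48. Hist1h1a showed the same arrangement, with 1.12 (adjusted p 1e-289) in the authors' deposited ClpX table and -0.04, not called, in the ClpP table. Its fold enrichments in the authors' deposited tables were 2.13 and 1.25, the latter being the lowest of any histone peak. Adjusted p-values this small stand beside a weak enrichment here, and they carry no replicate error.

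Hist1h1c stood apart from the other histone genes in its enrichment. Its peak had a fold enrichment of 29.6 in the authors' deposited ClpX table and 27.2 in the ClpP table, whereas the medians over the histone peaks were 3.54 and 3.48. It was called higher in both authors' deposited tables, by a log2 fold change of 1.0 for ClpX cKO with an adjusted p of 1.26e-92, and by 0.27 for ClpP cKO with an adjusted p of 0.00251. The ClpX peak, chr13:23738808-23740307 on the plus strand (GRCm38), was 1500 bases long and ran 776 bases beyond the RefSeq end of the gene, whose span is 725 bases. The ClpP peak was 1080 bases long and ran 746 bases beyond that end. The called peak of this gene therefore included downstream sequence in both tables, and where the methylated bases lie within it was not analysed.

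Hist1h1e was the other histone gene called higher in both. Its log2 fold change in the authors' deposited tables was 0.63 for ClpX cKO (adjusted p 1.62e-07) and 0.88 for ClpP cKO (adjusted p 6.46e-08). Hist1h1d was called in opposite directions. The authors' deposited ClpX table held 1 peak of 720 bases with a value of 0.75 (adjusted p 2.34e-10). The ClpP table divided the same stretch into a peak at the gene start, with -0.69 and an adjusted p of 0.000257, and a second with 0.08 that was not called (authors' deposited table). Hist1h1b was called in neither, with 0.77 in the authors' deposited ClpX table (adjusted p 0.0692) and 0.53 and -0.26 for its 2 peaks in the ClpP table.

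The start regions of 3 H1 genes are printed because the peaks of Hist1h1a (ClpX table) and Hist1h1d reached their gene starts, and Hist1h1t is the germ cell form. Each is 300 bases from RefSeq (GRCm38.p6), 250 before the start and 50 after it, written 5′ to 3′ along the gene. Capitals mark the CCAAT box, the TATA box (spelled TATAAA), the octamer bound by POU factors (spelled ATTTGCAT) and the H1 box (spelled AAACACA), on either strand. The windows lie at chr13:23763418-23763717 for Hist1h1a, chr13:23554782-23555081 for Hist1h1d and chr13:23695561-23695860 for Hist1h1t, all on the plus strand.
Hist1h1a: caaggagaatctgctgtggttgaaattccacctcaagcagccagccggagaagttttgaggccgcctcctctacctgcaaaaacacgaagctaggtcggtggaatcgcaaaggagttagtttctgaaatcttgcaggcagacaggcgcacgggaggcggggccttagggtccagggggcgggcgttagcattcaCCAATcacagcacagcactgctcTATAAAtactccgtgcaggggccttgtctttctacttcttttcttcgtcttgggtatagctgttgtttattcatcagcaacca
Hist1h1d: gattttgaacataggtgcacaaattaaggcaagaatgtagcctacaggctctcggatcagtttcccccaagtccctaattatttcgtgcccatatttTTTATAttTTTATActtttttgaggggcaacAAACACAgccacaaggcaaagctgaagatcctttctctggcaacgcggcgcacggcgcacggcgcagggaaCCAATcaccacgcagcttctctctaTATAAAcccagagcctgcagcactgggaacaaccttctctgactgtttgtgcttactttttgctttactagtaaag
Hist1h1t: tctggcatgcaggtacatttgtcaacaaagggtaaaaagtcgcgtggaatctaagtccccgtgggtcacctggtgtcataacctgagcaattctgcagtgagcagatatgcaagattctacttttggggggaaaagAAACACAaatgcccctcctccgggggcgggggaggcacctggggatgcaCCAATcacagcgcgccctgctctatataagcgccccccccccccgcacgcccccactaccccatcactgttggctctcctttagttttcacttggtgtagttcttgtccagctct

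All 6 H1 windows held CCAAT on the sense strand, at 51 (Hist1h1d), 52 (Hist1h1e), 53 (Hist1h1b), 54 (Hist1h1c), 56 (Hist1h1a) and 65 bases (Hist1h1t) before the start. The H1 box was found in 5 of the 6, at 112 (Hist1h1c), 114 (Hist1h1t), 115 (Hist1h1e), 117 (Hist1h1b) and 122 bases (Hist1h1d) before the start. Hist1h1a, whose window lacks those letters, and Hist1h1t, which has them, had near-equal values in both comparisons. The matches describe letters only and were not related to binding.

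H2A genes differed most between the tables in number. There were 2 H2A peaks in the ClpP comparison and 10 in the ClpX comparison. The ClpX values ranged from -1.81 to 2.38 around a median of 1.09, and 5 of the 10 were called higher and 0 lower. The highest was Hist1h2af with 2.38 (adjusted p 0.000955, authors' deposited table). The other called H2A genes were Hist1h2al with 1.97 (adjusted p 1e-285), Hist1h2ak with 1.66 (1e-126), Hist1h2ab with 1.35 (1.58e-19) and Hist1h2an with 1.19 (0.000112) in the authors' deposited table. All 5 called H2A genes were listed in the ClpX table alone. Peaks on such genes lean to high values whatever they encode, with a median of 1.2, so the direction of these 5 supports nothing. Hist1h2al lies on chromosome 13 away from the clusters and is listed by RefSeq under a pseudogene symbol, H2af-ps2. The lowest H2A value, -1.81 for Hist3h2a in the authors' deposited table, was not called, and its peak began beyond the 3′ end of the gene, inside the RefSeq span of Trim17.

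In the ClpP comparison Hist1h2ag was called lower at -1.72 (adjusted p 3.72e-07, authors' deposited table). Hist1h2ad had a larger negative value of -2.18 in the authors' deposited table but was not called (adjusted p 0.0646). In the ClpX table these same genes had -0.54 (adjusted p 0.0513) and -0.68 (0.546) in the authors' deposited values, and neither was called. They were the H2A genes present in both tables, and their values were negative in each.

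The H2B genes gave the highest single value among the histone peaks. Hist1h2bn reached 3.06 in the authors' deposited ClpX table (adjusted p 3.98e-11), and Hist1h2bg had 2.84 (2.51e-15). Of 13 H2B peaks in the ClpX comparison 8 were called higher and 2 lower, and their median was 0.57. The other peaks called higher were those of Hist1h2bp with 1.0, Hist1h2bj with 0.95, Hist1h2bm with 0.80, Hist1h2bb with 0.66, Hist2h2bb with 0.57 and Hist1h2be with 0.55 in the authors' deposited table. Hist1h2be had the largest adjusted p of these, 0.0355 in the authors' deposited table, and its peak joins 2 blocks far apart. Hist1h2bn, Hist1h2bp and Hist1h2bj were listed in the ClpX table alone, so their direction supports nothing.

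Hist1h2bc and Hist2h2be went the other way in both comparisons. Hist1h2bc was called lower with -1.48 for ClpX cKO (adjusted p 1.41e-05) and -2.25 for ClpP cKO (8.13e-09) in the authors' deposited tables. Hist2h2be carried 2 peaks on one 2667-base gene, the first at 47 to 493 bases from the start. That peak had -1.44 in the authors' deposited ClpX table (adjusted p 0.00191) and -0.62, not called, in the ClpP table (0.12). The second peak, which began 1743 bases from the start, had -0.93 (0.17, not called) and -0.91 (0.00759, called lower) in the same deposited tables. Both genes have long RefSeq spans, of 8282 and 2667 bases, as do Hist1h2be and Hist1h2bp, whereas the 8 other H2B genes span 448 to 493 bases. In the ClpP comparison these were the H2B genes called, 2 of 10 peaks, and the H2B median was -0.54 with a range from -2.25 to 0.38.

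H3 genes had the widest gap between the medians of the comparisons, -2.58 for ClpP cKO and 0.83 for ClpX cKO. In the ClpX comparison all 7 H3 peaks had positive values, from 0.22 to 1.76 (5 of 7 relative to all peaks), and 4 were called higher. These were Hist1h3d with 1.76 (adjusted p 0.00457), Hist1h3a with 1.35 (1.26e-25), Hist1h3b with 0.83 (0.000724) and Hist1h3c with 0.71 (1.51e-05) in the authors' deposited table. All of them but Hist1h3b were listed in the ClpX table alone, as were Hist1h3f and Hist1h3h, which were not called. Peaks on such genes lean to high values whatever they encode, with a median of 1.2. The direction of these peaks, which also enter the H3 median of 0.83, therefore supports nothing. In the ClpP comparison 2 of 3 H3 peaks were called lower. Hist1h3i had -2.88, the lowest of any histone peak, and Hist1h3b had -2.58 (adjusted p 0.0002 and 1.58e-16, authors' deposited table). Hist1h3i had 0.22 in the authors' deposited ClpX table and was not called there. The third H3 peak of the ClpP table, on Hist2h3c2, had 0.74 in the authors' deposited table, was not called, and had 16.5% of its bases inside the gene.

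The H4 genes were divided. Hist1h4k was called lower in both comparisons, with -1.27 for ClpP cKO (adjusted p 1e-28) and -0.71 for ClpX cKO (5.01e-13) in the authors' deposited tables. Hist1h4j was called lower for ClpP cKO with -1.19 (5.01e-20), and had -0.23, not called, for ClpX cKO in the authors' deposited tables. Hist1h4a with 1.09 (1e-13) and Hist1h4i with 0.55 (0.0129) were called higher in the authors' deposited ClpX table. Hist1h4a was listed in that table alone, so its direction supports nothing. The highest H4 value of the ClpP comparison, 1.12 for Hist1h4i, was not called in the authors' deposited table. The lowest H4 value of the ClpX comparison, -0.78 for Hist1h4c, was not called either in the authors' deposited table. The 6 H4 peaks of each table had medians of -0.09 and 0.16, and the latter was -0.08 relative to all peaks.

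Start regions of core histone genes are printed for one gene with a high ClpX value (Hist1h2bg), one called in opposite directions (Hist1h3b) and one called lower in both (Hist1h4k). The peaks of the first of these and of Hist1h3b began at -4 and -49 bases relative to the gene start, and that of Hist1h4k at 48 bases, so all 3 reach into these windows. Capitals have the meaning given for the H1 genes. The windows lie at chr13:23571150-23571449 and chr13:23752095-23752394 on the plus strand and at chr13:21750504-21750803 on the minus strand.
Hist1h2bg: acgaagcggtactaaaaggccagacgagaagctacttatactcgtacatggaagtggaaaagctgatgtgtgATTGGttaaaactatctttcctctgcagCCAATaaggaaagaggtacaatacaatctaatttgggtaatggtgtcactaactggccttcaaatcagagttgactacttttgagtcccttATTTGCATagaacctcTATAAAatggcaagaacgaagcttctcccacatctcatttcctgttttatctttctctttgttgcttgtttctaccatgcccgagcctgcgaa
Hist1h3b: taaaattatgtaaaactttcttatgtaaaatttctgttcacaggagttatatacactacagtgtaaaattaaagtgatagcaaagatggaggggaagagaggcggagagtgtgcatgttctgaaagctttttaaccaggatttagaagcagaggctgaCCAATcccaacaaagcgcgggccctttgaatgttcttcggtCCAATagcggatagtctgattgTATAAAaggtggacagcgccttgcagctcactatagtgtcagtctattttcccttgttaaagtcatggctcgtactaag
Hist1h4k: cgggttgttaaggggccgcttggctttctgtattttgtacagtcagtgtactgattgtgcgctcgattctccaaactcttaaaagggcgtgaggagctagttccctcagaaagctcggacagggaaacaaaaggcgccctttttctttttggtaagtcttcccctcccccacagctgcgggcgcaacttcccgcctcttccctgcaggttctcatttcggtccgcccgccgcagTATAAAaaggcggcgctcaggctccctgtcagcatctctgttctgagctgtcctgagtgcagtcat

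Promoter windows were found for 37 of the 43 genes, 38 windows in all. CCAAT occurred in 34 of 38 (89.5%), against 37.4% of all 32851 promoter windows of that length. It was present in every H1, H2A, H2B and H3 window and in 2 of 6 H4 windows. TATAAA occurred in 22 of 38 (57.9%, against 13.6%), the octamer in 8 (21.1%, against 1.74%) and the H1 box in 7 (18.4%, against 7.18%). Matches count at any place in a window, and TATAAA lay after the start in Hist1h2ad, Hist1h2ak and Hist1h4a. Windows of genes that lie head to head overlap, so 1 site can count in 2 windows, as the octamer of Hist1h2ae and Hist1h2bg does. The octamer was found in 5 of 11 H2B windows and 3 of 9 H2A windows, and in none of the H1, H3 or H4 windows. GGACT, a form of the m6A consensus, was not found on the sense strand in the last 50 bases of any of the 38 windows (all promoters: 5.76%), which says only that these letters are not in that stretch.

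Histone peaks began near the gene start more often than peaks on other genes in these tables. A peak began within 100 bases of the RefSeq gene start for 18 of 29 histone peaks (62.1%) in the ClpP table and for 33 of 42 (78.6%) in the ClpX table. Among all other peaks on genes matched by symbol the shares were 6.05% of 22604 and 7.12% of 22207. Core histone peaks did so in 16 of 21 and 29 of 36 cases, and H1 peaks in 2 of 8 and 4 of 6. Most histone genes are short, and the other genes were not matched for length. A position near the start and a short gene therefore cannot be told apart in this contrast. Of the histone peaks, 23 of 29 and 36 of 42 lay inside the gene span with at least 95% of their bases. The exceptions at the 3′ end were Hist1h1c and Hist2h3c2, described above, Hist1h4c in both tables, Hist1h4i in the ClpP table and Hist3h2a in the ClpX table. The peaks of the last 3 genes shared no base with the RefSeq span and began beyond its end, and none of those was called. Hist1h4i is the one gene in both tables whose peaks shared no base: its ClpX peak began at the gene start, and its ClpP peak lay past the 3′ end.

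**Figure D2:**
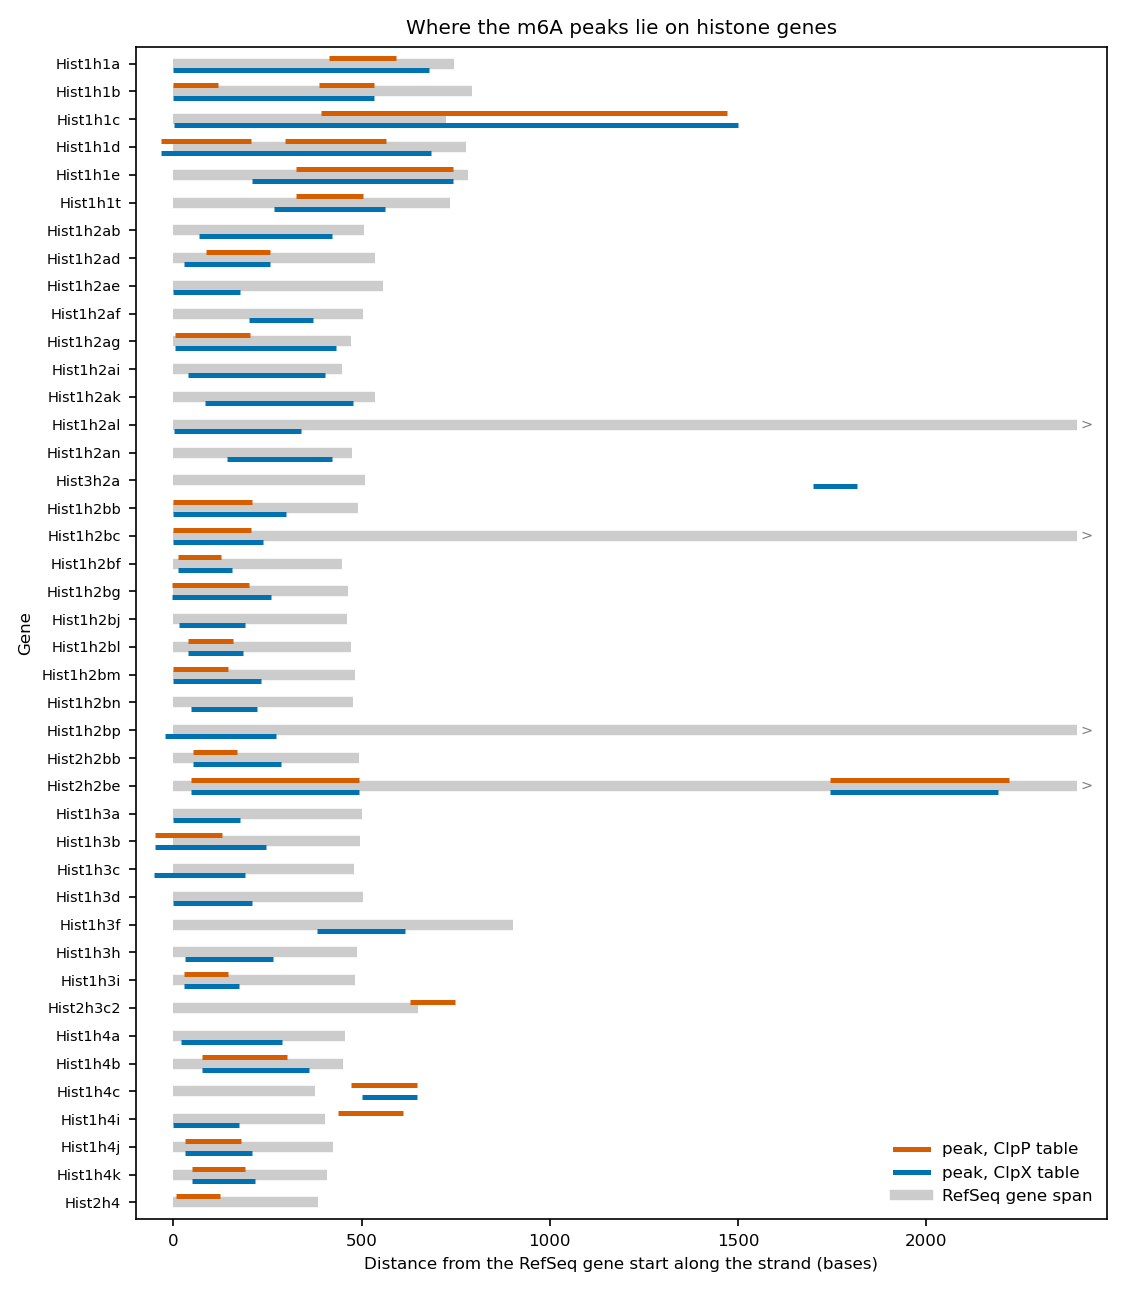
Each m6A peak is drawn along its gene in bases from the RefSeq start (x axis), orange for the ClpP table and blue for the ClpX table, over the RefSeq gene span in grey. Hist1h2be is left out because its peak has 2 distant blocks, and spans marked > go on beyond the axis. Most core histone peaks begin within 100 bases of the gene start, and the Hist1h1c peak runs past its gene's end.

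For 23 of the 24 genes in both tables the peaks overlapped, which made 26 pairs. The single ClpX peaks of Hist1h1b and Hist1h1d each pair with 2 ClpP peaks. The ClpX peak was the longer of the pair in 23 of 26 (88.5%), of equal length in 1 and shorter in 2. Among 21028 such pairs on all other genes the ClpX peak was longer in 36.6%, equal in 16.4% and shorter in 47.0%. The median lengths of the histone pairs were 178.5 bases in the ClpP table and 295.5 in the ClpX table. Over all peaks the medians were 301 and 300 bases. Hist1h1a is an example, with a ClpP peak of 179 bases inside the gene and a ClpX peak of 682 bases that covered 91.3% of it.

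Of the 26 pairs 6 were called in both tables. Hist1h1c and Hist1h1e were called higher in both, and Hist1h2bc and Hist1h4k lower in both. Hist1h1d and Hist1h3b were called lower for ClpP cKO and higher for ClpX cKO, and 0 pairs were called the other way round. All peaks lean the same way, with 12.8% lower and 6.74% higher for ClpP cKO, and 15.1% higher and 5.0% lower for ClpX cKO. The share of pairs called so on other genes is not given here. These counts are therefore not read as a result about histones. The ClpP and ClpX values of Hist1h3b were -2.58 and 0.83 for peaks that both began at chr13:23752296 (authors' deposited tables). The comparisons share their WT libraries, so these pairs are given side by side and their difference was not tested.

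**Figure D3:**
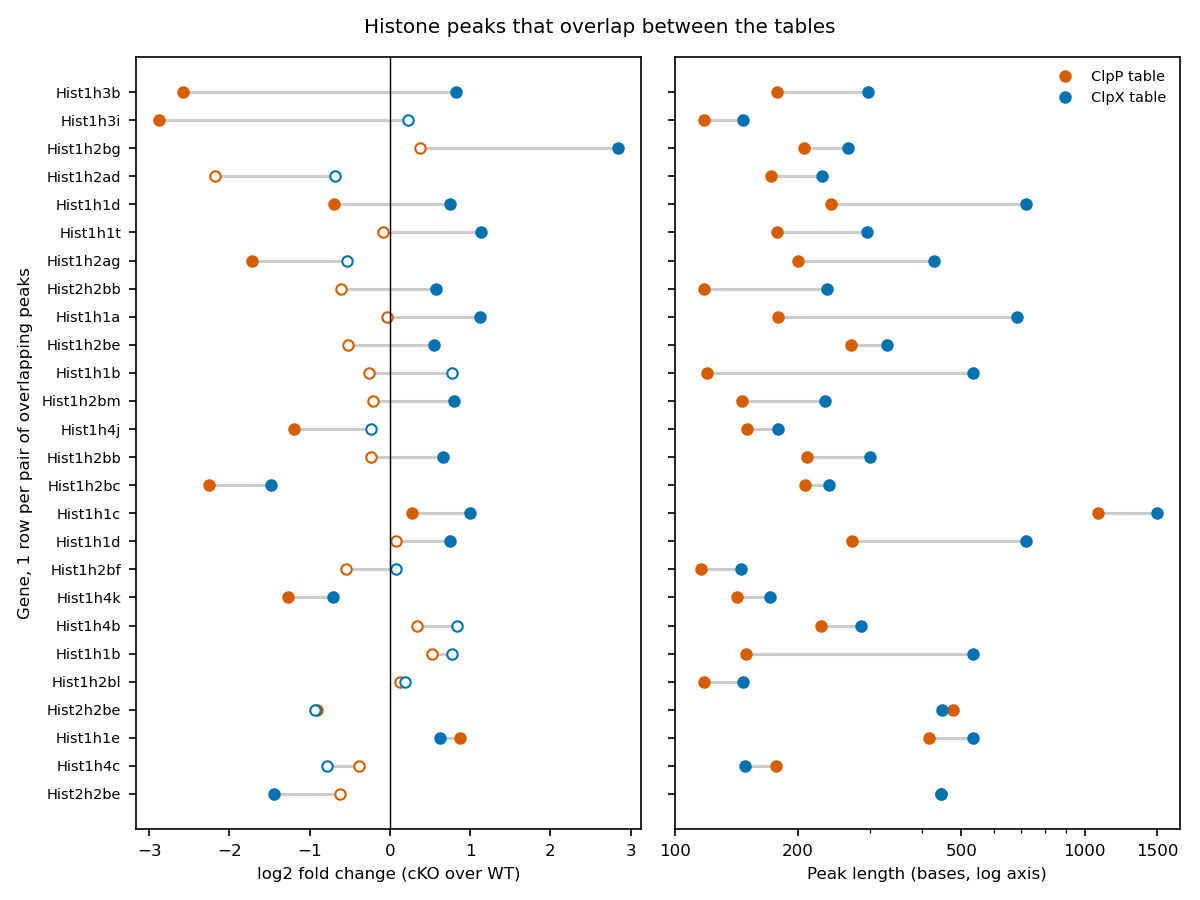
The 26 pairs of overlapping histone peaks, 1 pair per line, are plotted by log2 fold change (left, cKO over WT, authors' values; filled points called, open points not) and by peak length in bases on a log axis (right), orange for the ClpP table and blue for the ClpX table. The ClpX peak is the longer in 23 of 26 pairs, and Hist1h1d and Hist1h3b are the genes with filled points on opposite sides of 0.

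The 17 genes listed in the ClpX table alone had 12 of 17 peaks called higher (70.6%) and 0 lower, a median log2 fold change of 1.09 and a median fold enrichment of 2.3. Over all 1305 peaks on genes found in the ClpX table alone, 20.1% were called higher, 0.0766% lower, and the median was 1.2. Genes listed in one table alone thus lean to high values whatever they encode, and the direction of these 17 supports nothing. The 24 genes in both tables had 25 ClpX peaks, of which 12 were called higher and 3 lower (12.0%, against 5.29% of all such peaks), and their median was 0.55, beside 0.2. Absence from the ClpP table means that no peak was called there, and gives no value.

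Histone peaks were weakly enriched, with a median fold enrichment of 3.48 in the ClpP table and 3.54 in the ClpX table, against 8.23 and 8.9 for all peaks. Weakly enriched peaks of any gene were called higher more often in the ClpX table, so the histone peaks were set beside peaks of the same enrichment. In the lowest quintile of all ClpX peaks (fold enrichment 1.12 to 3.79) 17 of 23 histone peaks were called higher, against 33.2% of all peaks there. The medians were 1.0 and 0.81. The 17 include all 12 higher calls on genes listed in the ClpX table alone, and the direction of those 12 supports nothing. In the next quintile 4 of 10 were called higher, against 19.9%, but the medians were 0.41 and 0.48. The upper 3 quintiles held 6, 2 and 1 histone peaks, with medians of 0.39, -1.62 and 1.0 beside 0.22, 0.0 and -0.26 for all peaks there. In the lowest quintile of the ClpP table (1.12 to 3.52) 6 of 15 histone peaks were called lower, against 12.1% of all peaks there. The medians had opposite signs, -0.61 and 0.17. The second ClpP quintile had 1 of 7 lower, against 12.7%, with medians of -0.23 and 0.03. The upper 3 held 5, 1 and 1 histone peaks, of which 1, 0 and 0 were lower. Their histone medians were 0.38, -0.62 and 0.27, beside -0.14, -0.07 and -0.17 for all peaks. The lean to lower calls was thus seen among the weakest ClpP peaks.

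**Figure D4:**
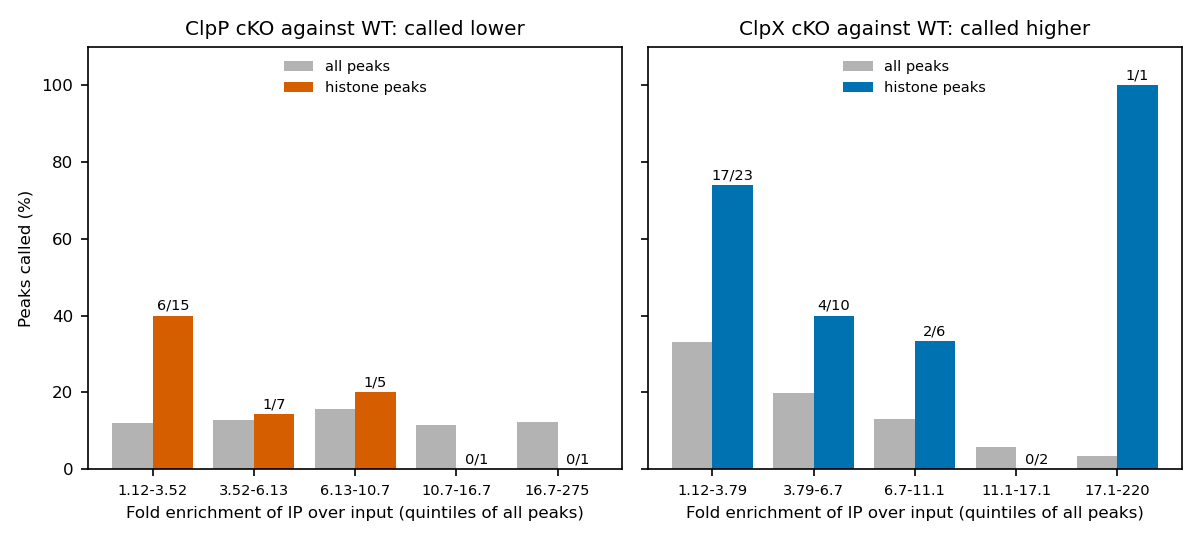
The percentage of peaks called lower for ClpP cKO (left) and higher for ClpX cKO (right) is plotted by quintiles of all peaks in order of fold enrichment of IP over input (x axis), grey for all peaks and coloured for histone peaks, with called over listed histone peaks above each bar. Most histone peaks lie in the lowest quintile, where 6 of 15 (ClpP) and 17 of 23 (ClpX) were called. The 17 include the 12 higher calls on genes listed in the ClpX table alone. The upper 3 quintiles hold 1 to 6 each.

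The histone genes lie in 2 groups on chromosome 13, a smaller one on chromosome 3, and singly elsewhere. Their counts stand beside 15.1% of all peaks higher and 5.0% lower in the ClpX table, and 6.74% higher and 12.8% lower in the ClpP table. The group at chr13:23533875-23764412 had 15 of 22 ClpX peaks called higher and 1 lower (median 0.84). That at chr13:21715711-22043658 had 7 of 15 higher and 1 lower (median 0.77). Both counts include higher calls on genes listed in the ClpX table alone, whose direction supports nothing. In the first group these were Hist1h2ab, Hist1h2af, Hist1h3a, Hist1h3c, Hist1h3d and Hist1h4a. In the second they were Hist1h2ak, Hist1h2an, Hist1h2bj, Hist1h2bn and Hist1h2bp. In the ClpP comparison the first had 2 of 15 peaks higher and 3 lower (median -0.23) and the second had 0 of 9 higher and 4 lower (median -0.26). The chromosome 3 genes gave 5 ClpP peaks with a median of -0.61 and 3 ClpX peaks with a median of -0.93, among which Hist2h2be gave 2 in each table.

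H2A and H2B genes often lie head to head, with a shared start region between them. In 6 such pairs with peaks, 163 to 248 bases separated the starts. In the authors' deposited ClpX table Hist1h2ak and Hist1h2bn had 1.66 and 3.06, and Hist1h2an and Hist1h2bp had 1.19 and 1.0, all called higher. None of these genes was listed in the ClpP table, so their shared direction supports nothing. Hist1h2ag and Hist1h2bj, 248 bases apart, differed in sign in the authors' deposited ClpX table, with -0.54 (not called) and 0.95 (called higher). Hist1h2bg with 2.84 was called and its neighbour Hist1h2ae with 1.0 was not (adjusted p 0.283) in the authors' deposited ClpX table. Neither member of the pairs Hist1h2bf with Hist1h2ad and Hist1h2bl with Hist1h2ai was called in the ClpX table. Members of a pair thus had like values in some pairs and unlike values in others.

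Several histone peaks shared bases with the peak of another gene, which adds to the uncertainty of assignment. This held for 2 peaks of the ClpP table and 8 of the ClpX table, 7 of the latter only with genes on the opposite strand. Of the 8, 6 were H2A genes that overlapped a predicted antisense gene, and whether the counting used strand is not given. The values of some partners were close, such as 2.38 for Hist1h2af and 2.52 for Gm44297, and 1.97 for Hist1h2al and 2.04 for Gm44341 in the authors' deposited ClpX table. Others were apart, such as 0.11 for Hist1h2ai and 1.43 for Gm44367 in the authors' deposited ClpX table. With all 8 peaks of this kind left out of the 42, 19 histone peaks remained called higher in the ClpX comparison, in place of 24. Among all ClpX peaks 15.1% were called higher. The 19 still include genes listed in the ClpX table alone, whose direction supports nothing.

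Genes that act with histones were read from 4 lists that do not overlap the clustered genes. Counts are of genes unless peaks are named, and shares of peaks stand beside 6.74% higher and 12.8% lower of all ClpP peaks and 15.1% and 5.0% of all ClpX peaks. Of 23 genes for histone variants made outside S phase, 11 had a peak in the ClpP table, 0 of them higher and 4 lower (median -0.33), and 10 in the ClpX table, 3 higher and 0 lower (median 0.72). By peak, 4 of 15 (26.7%) were lower in the ClpP table and 4 of 14 (28.6%) higher in the ClpX table. H2afx, the variant phosphorylated at DNA breaks, had -0.74 (adjusted p 2e-16) and 0.59 (2.69e-09) in the authors' deposited ClpP and ClpX tables. H1fx, a linker variant, had -0.52 and 0.84 in the same deposited tables. H2afj had 3.96 in the authors' deposited ClpX table, and Hils1, a spermatid linker histone, had -0.33 in the ClpP table.

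The list for transcription and 3′ end processing of histone messenger RNA held 36 gene names, including older names of genes also listed. Of these, 27 had a ClpP peak, with 5 genes called higher and 6 lower, and 29 a ClpX peak, with 8 higher and 4 lower. The medians of their peaks were 0.31 and 0.37. By peak, 14.5% were higher and 14.5% lower of 55 in the ClpP table, and 20.3% higher and 6.78% lower of 59 in the ClpX table, so the shares called lower lay near the background. Mif4gd, whose protein binds the stem-loop binding protein SLBP, had -0.74 (adjusted p 7.94e-51) and 0.61 (3.16e-20) in the authors' deposited ClpP and ClpX tables. Sympk, a scaffold of the cleavage complex, had 2.33 and Srrt, of the cap-binding complex, 1.71 in the authors' deposited ClpX table. Cstf2t, a germ cell cleavage factor, had -1.02 and Upf1, an RNA helicase of histone messenger RNA decay, -0.58 in the authors' deposited ClpP table.

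Among 36 histone chaperone genes the ClpX table gave 12 higher and 2 lower of 31 with a peak (median 0.45), and 5 were higher and 6 lower of 30 in the ClpP table (median 0.02). By peak, 23.7% of 76 were higher and 2.63% lower in the ClpX table, and 10.7% of 75 higher and 14.7% lower in the ClpP table. Chaf1b, of the chromatin assembly factor CAF-1, had 1.79, Ubn1, of the HIRA complex, 1.78 and Anp32b 1.43 in the authors' deposited ClpX table. Ubn2, also of the HIRA complex, had -1.59, Supt16, of the FACT complex, -0.98 and Hjurp, the centromere histone chaperone, -0.66 in the authors' deposited ClpP table.

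Of 50 DNA replication genes, with Mcm2 also counted among the chaperones, 43 had a ClpX peak, with 12 higher and 3 lower (median 0.47), and 41 a ClpP peak, with 6 higher and 11 lower (median 0.09). By peak, 16.0% of 75 were higher and 4.0% lower in the ClpX table, near the background, and 9.84% of 61 higher and 19.7% lower in the ClpP table. Top2a, a DNA topoisomerase, had -1.29, and the replicative helicase subunits Mcm6 and Mcm7 had -1.21 and -0.98 in the authors' deposited ClpP table. Mcm3 had 1.84, Uhrf1, a maintenance methylation factor, 1.4 and Rpa1, of the single-strand binding complex, 1.11 in the authors' deposited ClpX table.

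Cell type markers were read in the same way, as m6A changes and not as expression levels, with the same shares of all peaks as background. Of 9 pachytene spermatocyte markers 8 and 7 had a peak in the ClpP and ClpX tables, with medians of 0.29 and 0.25, with 3 higher and 2 lower for ClpX cKO and 1 higher and 3 lower for ClpP cKO. Spermatid markers had 5 of 7 called higher in the ClpX table (median 0.63) and 2 higher and 1 lower in the ClpP table (median 0.07). Spermatogonial markers had 4 of 5 with a peak called higher in the ClpX table (median 1.14) and 1 higher and 1 lower in the ClpP table (median 0.85). The 10 markers of immune, endothelial, peritubular and Leydig cells gave 7 genes with a ClpX peak, 4 higher and 0 lower (median 1.85), and 4 with a ClpP peak, 2 higher and 0 lower (median 0.29). Of 6 Sertoli markers 5 had a peak in each table, with 1 gene higher and 3 lower in the ClpX table (median 0.79) and 1 higher and 2 lower in the ClpP table (median 0.14). By peak, the ClpX table had 36.4% of 11 pachytene, 60.0% of 10 spermatid and 62.5% of 8 spermatogonial marker peaks called higher. For Sertoli and other somatic markers the shares were 3 of 10 and 35.7% of 14. Each lay above the 15.1% of all peaks, but except for spermatogonia the lists were weakly enriched, with medians of 2.9 to 3.73. In the lowest quintile of enrichment, which holds those medians, 33.2% of all peaks were called higher, near the pachytene, Sertoli and other somatic shares. In the same order 2, 0, 0, 3 and 0 peaks were called lower. The ClpP table had 4 of 18, 2 of 8, 1 of 12, 2 of 11 and 3 of 10 higher. There, 6, 1, 1, 2 and 0 were lower. Peaks say where m6A was called, so they do not show which of these cells were present. The part of these cell types in the histone values was not tested. Hist1h2aa and Hist1h2ba, the genes of the testis histones TH2A and TH2B, were not listed in either table and have no value here.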

How the data were processed

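m6A-seq libraries of IP and input RNA from male germ cells of WT, ClpP cKO and ClpX cKO mice were compared by the authors, 1 IP and 1 input library per genotype. The 2 deposited tables give 1 row per peak. Per the file headers, the authors' values are the log10 of the p-value and adjusted p-value of the peak and of the difference (scores of 0 or less, turned back into p-values here), the fold enrichment of the peak, and the log2 fold change of the difference. The headers do not define the fold enrichment, and it is read here as a ratio of IP over input. Per the submitters' processing notes, the genome was GRCm38 (mm10). No source used here names the peak caller, aligner, annotation or normalization, and read depth is not known.

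Histone genes were taken by name. The members and the other gene lists were chosen with earlier results of these data known. A call is an adjusted p under 0.05 with the sign of the log2 fold change. No test was run: counts and medians stand beside those of all peaks. A recomputed Benjamini-Hochberg adjustment, tested on simulated p-values, gave the same side of 0.05 for 99.39% and 99.32% of peaks. Positions were computed 1-based against RefSeq gene spans (GRCm38.p6), and peaks were paired between tables by at least 1 shared base. The genes named were all linker H1 members, called members (for a family with over 8, the 4 lowest and 4 highest), the extremes of each family, and up to 3 called genes per other list by adjusted p. Further H2B genes, those of head-to-head pairs and those whose peaks shared bases or differed in position were named after their values were seen. Peak sequences, stem-loops and proteins were not analysed here. Python 3.11.15, pandas 2.3.3, numpy 2.4.6 and scipy 1.17.1 were used.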

Additional observations from a re-analysis of the deposited data

Results flagged for a closer look

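In 2 genes, overlapping peaks of the authors' deposited tables were called in opposite directions in the knockouts. The ClpX value minus the ClpP value was 1.44 for Hist1h1d and 3.41 for Hist1h3b on the log2 scale. The libraries of each knockout moved to opposite sides of the shared WT libraries, and the difference itself was not tested. How often pairs on other genes were called so is not given here. The Hist1h1d peak is 241 bases in the ClpP table and 720 in the ClpX table, and the Hist1h3b peak 178 and 296 bases, so the compared stretches are not the same.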

How the results depend on the processing

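Calls at an adjusted p under 0.01, a recomputed adjustment, leaving out peaks with a fold enrichment under 2, leaving out peaks that share bases with another gene, and 1 peak per gene each kept the 4 counts within 1.5 times the values reported. Of 37 single peaks called, 35 stayed called at 0.01, and Hist1h2be and Hist1h4i in the ClpX comparison did not. A log2 fold change of at least 1 on top of the adjusted p left 0 histone peaks higher for ClpP cKO and 13 for ClpX cKO, and that size alone left 1 and 13, in place of 2 and 24. Many called peaks are smaller than that, and the 1 is Hist1h4i, which was not called. Restricting to genes with a peak in both tables, an alternative chosen after seeing the data, left 12 higher for ClpX cKO. Subtracting the median of all peaks moved the ClpX median from 0.76 to 0.52 and that of ClpP from -0.26 to -0.23. No name held -ps, so that alternative changed no value. No paired analysis was possible because each group has 1 library. Without read counts, what depth limits cannot be given.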
